A study of Mus musculus with 24 samples.

Results

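The genes described here encode the 4 connexins of blood vessels: Gja5 (Cx40), Gja4 (Cx37), Gja1 (Cx43) and Gjc1 (Cx45). They are 4 of the 20665 protein-coding genes on chromosomes 1 to 19, and 90 of the 313065 deposited histone-mark peaks overlap them or the 20000 bp on either side. The 4 genes were chosen by name, with the genotype comparison of these same peak lists already known, including an H3K4me3 peak at an end of Gja5 that was listed in wild type alone. Every count between genotypes below is therefore a description and carries no test.

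The study sorted endothelial cells by flow cytometry from lungs of mice without Dnmt3a (KO) and of wild-type mice (WT). DNMT3A is a de novo DNA methyltransferase, which adds methyl groups to cytosines, mostly in CG dinucleotides. ACT-seq was used, in which an antibody guides a loaded Tn5 transposase to a histone mark so that the DNA there is cut and tagged. H3K4me1 (enhancers and promoter flanks), H3K27ac (active enhancers and promoters), H3K4me3 (promoters) and H3K27me3 (Polycomb-silenced chromatin) were mapped in 3 samples of each genotype, 24 samples in 8 groups. No drug or time point is labelled. The sources used here do not give the age or strain of the mice, how and in which cells Dnmt3a was deleted, or whether samples came from separate animals.

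Each group is represented by 1 peak list, so no spread between replicates, no depth and no peak height is available, and a difference between genotypes is a difference between 2 lists. A peak is called shared where 1 bp or more of it is also covered by that mark's list of the opposite genotype, and WT-only or KO-only where not. The genotype labels cannot be checked from histone-mark peaks. Of 10 endothelial marker genes, 10 had H3K27ac and 8 had H3K4me3 within 1000 bp of an annotated end in both genotypes (Egfl7 and Vwf lacked H3K4me3 there in both). H3K27ac in both genotypes was found at 2 of 10 smooth muscle and pericyte markers (Myh11 and Mcam), 0 of 6 fibroblast markers, 4 of 9 epithelial markers (Sftpc, Sftpb, Scgb1a1 and Hopx) and 1 of 7 leukocyte markers (Spi1). It was WT-only at 2 of 6 fibroblast markers (Col1a2 and Tcf21) and 1 of 10 smooth muscle and pericyte markers (Rgs5). No endothelial, epithelial or leukocyte marker was WT-only for it, beside 5.88% of all protein-coding genes. H3K4me3 was KO-only at 4 of the 10 smooth muscle and pericyte markers (Acta2, Myh11, Rgs5 and Kcnj8), 2 of 9 epithelial markers (Epcam and Scgb1a1), 1 of 6 fibroblast markers (Col1a2), 1 of 7 leukocyte markers (Cd79a) and 0 of 10 endothelial markers, beside 6.90% of all protein-coding genes. Whether other cells contributed to the connexin peaks was not tested.

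Connexins assemble into hemichannels in the plasma membrane, and the hemichannels of neighbouring cells dock to form gap junctions through which ions and small molecules pass. In vessels they couple endothelial cells to each other and to smooth muscle, and conducted vasodilation depends on this coupling. Gja5 and Gja4 are the connexin genes typical of arterial endothelium, Gja1 is expressed widely, in endothelium as well as in smooth muscle and fibroblasts, and Gjc1 is best known from vascular smooth muscle, the cardiac conduction system and the early embryonic vasculature.

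The 90 peaks were 43 in WT and 47 in KO, and 47 of the 90 were shared. Of 34 peaks over 500 bp, 32 were shared, beside 91.5% of the 109551 peaks of that width in the whole lists, so this is no property of the connexin genes. The shared peaks over the 4 genes had a median width of 646 bp. The 19 WT-only peaks had a median width of 207 bp and the 24 KO-only peaks one of 244 bp, and 37 of these 43 were narrower than 350 bp. Of the 2 genotype-only peaks over 500 bp, 1 was a KO H3K27ac peak inside Gja5 (511 bp), and the other, in the upstream flank of Gja4, is not described here. For 5 of the 43 genotype-only peaks, the opposite genotype had that mark within 500 bp. Another mark overlapped 36 of the 47 shared and 20 of the 43 genotype-only peaks. These shares were not computed over the whole lists. The shared peaks were also wider, and the part of width in this contrast was not tested. The most distant peaks kept by the 20000 bp limit began 16596 bp from Gja1, 14482 bp from Gja4, 14399 bp from Gja5 and 19000 bp from Gjc1, and the nearest ones left out began at 31583, 20094, 21377 and 20004 bp.

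**Figure D1:**
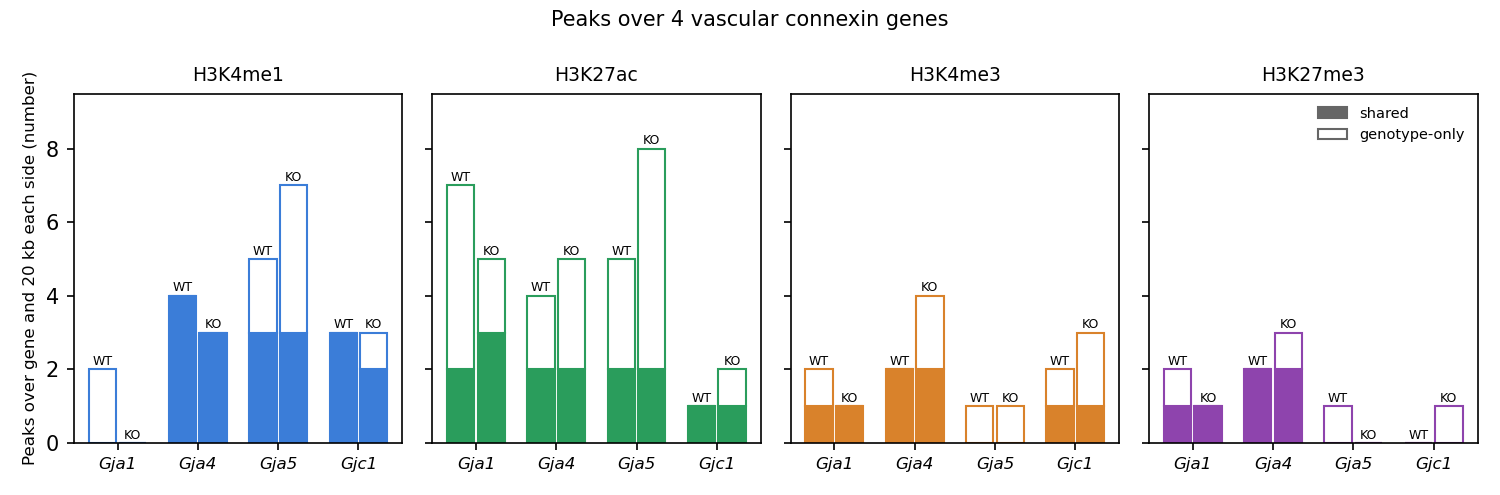
Number of peaks of each mark (4 panels) over each connexin gene and 20 kb on each side; filled bars are shared peaks, open bars genotype-only peaks, with WT left and KO right. Gja5 has the tallest open H3K27ac bar (6 KO-only peaks), and all H3K4me1 peaks of Gja4 are shared (4 in WT and 3 in KO).

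By mark, the genotype-only share over the 4 genes can be read against the share of the whole list. The lists differed in length, which bears on these shares. H3K4me1 held 49363 peaks in WT and 48458 in KO, and H3K27ac 81112 and 44484. H3K4me3 held 14984 in WT and 22724 in KO, and H3K27me3 20918 and 31022. For H3K4me1, 4 of 14 WT peaks were WT-only (23.5% in the whole list) and 5 of 13 KO peaks KO-only (24.3%). For H3K4me3, 3 of 7 WT peaks were WT-only (18.0%) and 5 of 9 KO peaks KO-only (48.4%), and for H3K27me3 the counts were 2 of 5 in WT (24.9%) and 2 of 5 in KO (51.4%). For H3K27ac, 10 of 17 WT peaks were WT-only (63.0%) and 12 of 20 KO peaks KO-only (32.5%), and 6 of these 12 lay over Gja5. With equal numbers of the widest H3K27ac peaks, 2 of 9 WT peaks were WT-only and 12 of 20 KO peaks KO-only. The KO H3K27ac peaks over the 4 genes were narrower than their whole list, with a median width of 244.5 bp against 363 bp. At the widths of the KO-only ones, 26.6% to 57.6% of KO H3K27ac peaks were shared, except for 88.5% at 511 bp. KO-only H3K27ac was found over all 4 genes, as it was over 32.5% of protein-coding genes measured the same way, and WT-only H3K27ac over 3 of 4 (62.5%).

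**Figure D2:**
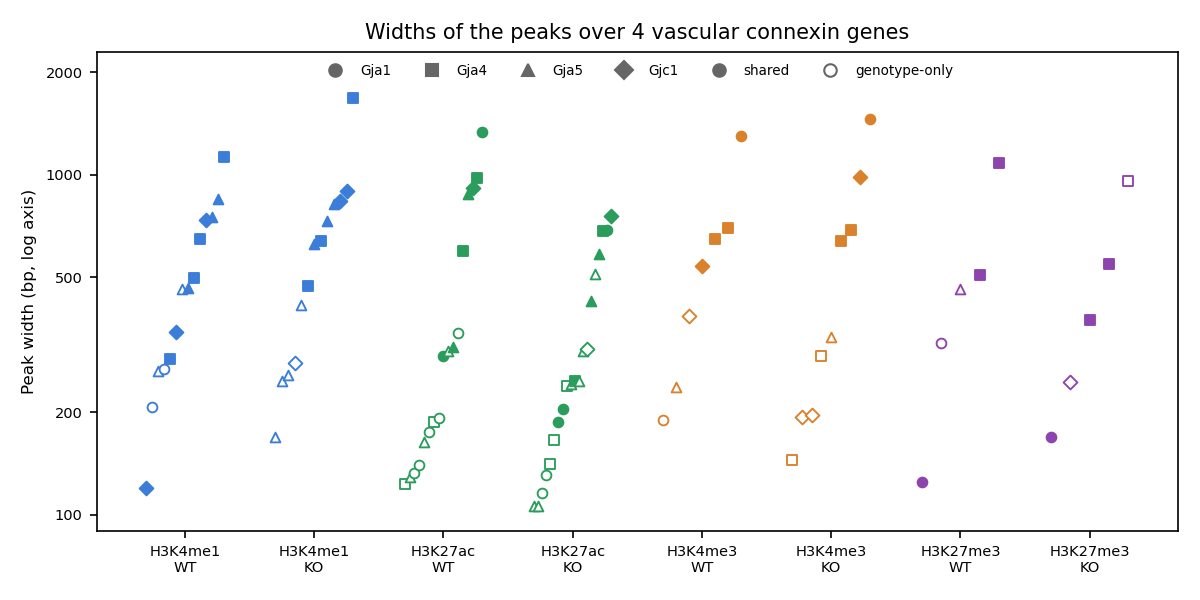
Width in bp (log axis) of each of the 90 peaks, by mark and genotype; the marker shape gives the gene, filled markers are shared peaks and open markers genotype-only peaks. Open markers lie at the narrow end of most columns, and the widest peak is the 1680 bp KO H3K4me1 peak next to Gja4.

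Gja5 (chromosome 3, 97032402 to 97053634, plus strand) encodes the connexin used most often as a marker of arterial endothelium, and none of its H3K4me3 or H3K27me3 peaks were shared. H3K4me3 was listed at the start of the gene in WT alone and at a distal site upstream of it in KO alone, while H3K27ac was listed at both places in both genotypes. The 250 bases before the annotated start are shown because the WT-only H3K4me3 and H3K4me1 peaks lie on them; CG dinucleotides, the usual target of DNMT3A, are in capitals (RefSeq, GRCm38.p6, plus strand, chr3:97032152-97032401).
Gja5: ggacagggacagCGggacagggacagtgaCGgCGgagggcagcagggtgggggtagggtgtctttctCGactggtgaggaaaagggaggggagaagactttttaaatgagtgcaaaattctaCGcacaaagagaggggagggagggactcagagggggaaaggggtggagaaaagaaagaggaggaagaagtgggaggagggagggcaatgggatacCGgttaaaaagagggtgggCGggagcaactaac

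This stretch held 7 CG dinucleotides, close to the median of 6 over 31396 RefSeq promoters of chromosomes 1 to 19 in the table used, and 56.5% of those promoters held as many or fewer. The WT H3K4me3 peak (chr3:97032227-97032464, 238 bp) ran from 175 bp before the annotated start to 62 bp after it and covered 175 of the 250 bases. No KO H3K4me3 peak lay closer to it than 6486 bp. The WT peak was narrow, at the 21.6th percentile of its list, and of the 2309 WT H3K4me3 peaks whose width was within 20% of its own, 56.9% were shared. H3K4me1 at the start was WT-only as well, in a 461 bp peak (chr3:97032145-97032605) that covered all 250 bases and lay 400 bp from the nearest KO peak. WT H3K4me1 peaks of that width were mostly shared (88.6% of 12682). H3K27ac was listed at the start in both genotypes, as 311 bp in WT and 426 bp in KO, a KO over WT width of 1.37, and no H3K27me3 peak lay there.

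At the level of annotated gene ends, Gja5 was the only one of the 4 genes whose H3K4me3 differed between genotypes, and 0.682% of all protein-coding genes were WT-only by the same rule. Its combination of marks at gene ends (H3K4me1 and H3K27ac in both genotypes, H3K4me3 in WT only, no H3K27me3) was shared by 5 other genes. WT-only H3K4me3 peaks overlapped H3K27ac of both genotypes in 13.4% of 2704 cases. Of 5554 promoters with 5 to 9 CG dinucleotides, 17.4% had H3K4me3 on the 250 bases in both genotypes, 7.54% in KO only and 0.90% in WT only.

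The distal site of Gja5 lay about 7 kb before the start and carried all 4 marks in at least 1 genotype. H3K4me1 was shared there, with 850 bp in WT (7101 to 6252 bp before the start) and 729 bp in KO, and so was H3K27ac, with 880 bp in WT and 586 bp in KO. Inside the WT peaks of both marks, H3K27me3 was WT-only (chr3:97025364-97025823, 460 bp) and H3K4me3 was KO-only (chr3:97025408-97025741, 334 bp), so that the KO H3K4me3 peak lay within the bounds of the WT H3K27me3 peak. The H3K27me3 peak had no KO counterpart within 60728 bp, and 83.0% of WT H3K27me3 peaks of its width were shared. The H3K4me3 peak was of a width at which 29.6% of the KO list was shared. Of all KO-only H3K4me3 peaks, 38.1% overlapped H3K4me1 and H3K27ac of both genotypes, and 2.61% did so and also overlapped H3K27me3 in WT only. Of WT-only H3K27me3 peaks, 21.1% overlapped H3K4me1 and H3K27ac in both genotypes.

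**Figure D3:**
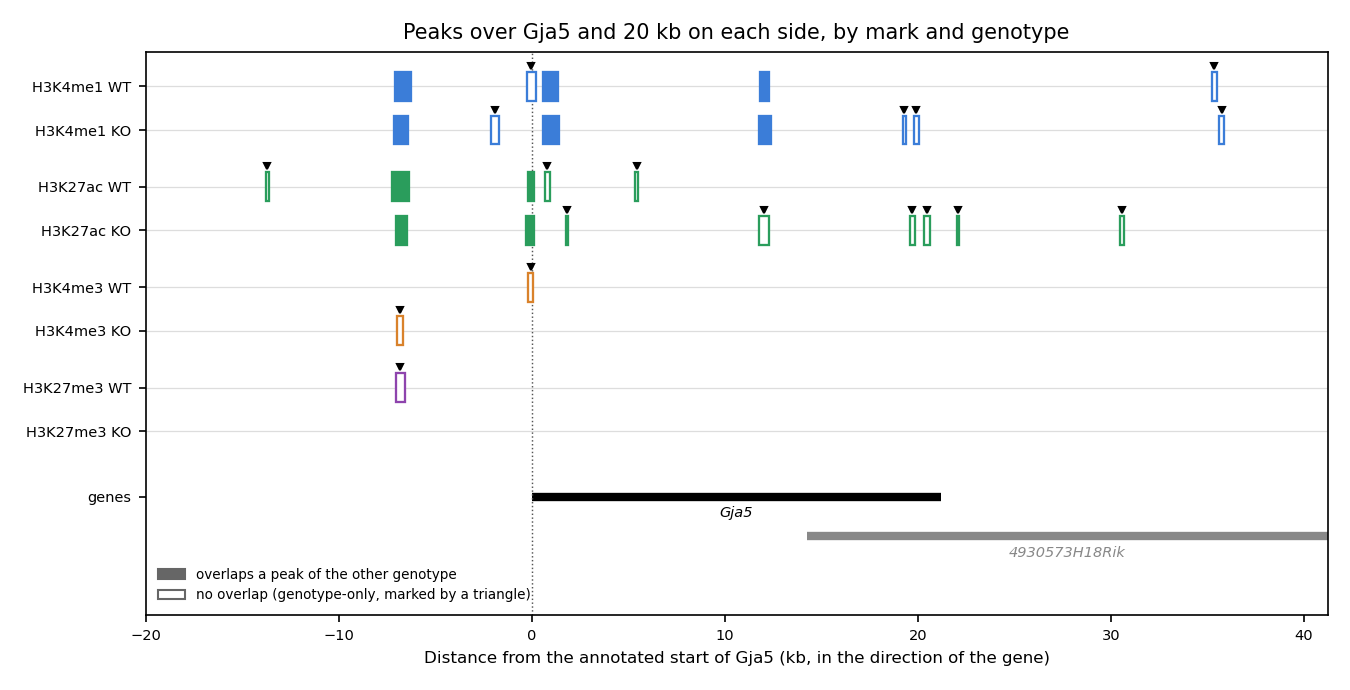
Peaks of 4 marks in WT and KO over Gja5, drawn to scale against the distance in kb from the annotated start in the direction of the gene; filled boxes are shared peaks and open boxes with a triangle are genotype-only. The H3K4me3 box sits at the start in WT and 6486 bp away, about 7 kb before the start, in KO.

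Inside and behind Gja5 the KO list held H3K27ac that the WT list lacked. The KO H3K27ac peaks over the gene and its flanks measured 586, 426, 106, 511, 248, 303, 106 and 242 bp from the most upstream to the most downstream, and the last 6 were KO-only. The widest of these (chr3:97044189-97044699, 511 bp) began 11787 bp into the gene on H3K4me1 that both genotypes had (465 bp in WT and 624 bp in KO). It lay 6291 bp from the nearest WT H3K27ac peak, and 88.5% of KO H3K27ac peaks of its width were shared. At the widths of the other KO-only H3K27ac peaks here, the shared part of the KO list was smaller, from 26.6% to 56.6%. Another 3 KO-only H3K27ac peaks stood near the far end of the gene (248, 303 and 106 bp, between 19604 and 22155 bp from the start), beside KO-only H3K4me1 peaks of 169 and 248 bp. That stretch also overlaps the long noncoding RNA gene 4930573H18Rik (97046656 to 97092785), so the marks cannot be assigned to either gene. The same holds for all peaks farther downstream, the 242 bp KO-only H3K27ac peak among them. The WT list held 5 H3K27ac peaks here, of 164, 880, 311, 303 and 129 bp, and those of 164, 303 and 129 bp were WT-only. Of these, the 303 bp peak (666 to 968 bp into the gene) lay on H3K4me1 of both genotypes.

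Among 7186 genes whose window was within 20% of the length of that of Gja5, 3 (0.0417%), Gja5 included, had at least as many KO-only H3K27ac peaks. This share was added after the peaks were seen and was the smallest of its kind for any mark and genotype over the 4 genes. It is therefore a description and not a test. With peaks under 200 bp left out, Gja5 had 4 KO-only H3K27ac peaks and 14 genes (0.195%) had at least as many. Over all settings run the share ranged from 0.0278% to 0.195%. The remaining H3K4me1 peaks over Gja5 were a KO-only peak of 413 bp, 2101 to 1689 bp before the start, a shared peak just inside the gene (751 bp in WT and 819 bp in KO), and a pair of genotype-only peaks behind the gene, 264 bp in WT and 257 bp in KO, that missed each other by 137 bp.

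Gja4 (chromosome 4, 127311420 to 127314039, minus strand) encodes the other connexin typical of arterial endothelium, and 10 of its 12 WT peaks and 9 of its 15 KO peaks were shared. These counts include peaks of the distant upstream flank, genotype-only ones among them, that are not described here. Its start carried all 4 marks in both genotypes. The 250 bases before the start are shown because peaks of all 8 lists cover every one of them; CG dinucleotides are in capitals (RefSeq, GRCm38.p6, minus strand, chr4:127314040-127314289).
Gja4: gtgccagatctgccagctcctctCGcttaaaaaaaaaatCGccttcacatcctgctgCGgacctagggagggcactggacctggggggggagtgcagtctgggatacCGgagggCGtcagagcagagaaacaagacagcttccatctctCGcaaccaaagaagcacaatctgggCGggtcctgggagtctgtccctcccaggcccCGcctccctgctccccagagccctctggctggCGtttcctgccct

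The stretch held 9 CG dinucleotides, and 61.7% of promoters held as many or fewer. H3K4me3 at the start was nearly identical in the 2 lists, with 695 bp in WT (378 bp before to 316 bp after the start) and 686 bp in KO (376 bp before to 309 bp after). H3K4me1 measured 646 bp in WT and 640 bp in KO, H3K27me3 507 and 545 bp, and H3K27ac 977 and 684 bp, a KO over WT width of 0.70. Of all WT H3K4me3 peaks that were shared, 44.2% also overlapped H3K27me3 in both genotypes, and all 4 marks in both genotypes were found at the ends of 3922 other protein-coding genes, so this combination was common in these lists.

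A second H3K4me3 peak lay in the body of this short gene in both genotypes, 1556 to 2203 bp from the start in WT (648 bp) and 1505 to 2144 bp in KO (640 bp), and carried no other mark. A KO-only H3K4me3 peak of 145 bp stood between both, 806 to 950 bp from the start. Only 6.79% of KO H3K4me3 peaks of that width were shared.

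Behind Gja4 lay the widest H3K4me1 peaks of the 4 genes. H3K4me1 there was 1 peak of 1680 bp in KO (chr4:127305779-127307458), at the 99.6th percentile of its list, and 2 peaks of 497 and 1128 bp in WT (chr4:127305788-127306284 and chr4:127306343-127307470). H3K27ac in this region was a single 596 bp peak in WT and 3 peaks in KO, a shared one of 247 bp and KO-only ones of 166 and 239 bp. The KO-only pair lay on H3K4me1 of both genotypes. Over the 4 genes, 4 of 12 KO-only H3K27ac peaks did so, against 22.5% of all KO-only H3K27ac peaks. A further H3K4me1 peak, 288 bp in WT and 472 bp in KO, was shared.

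**Figure D4:**
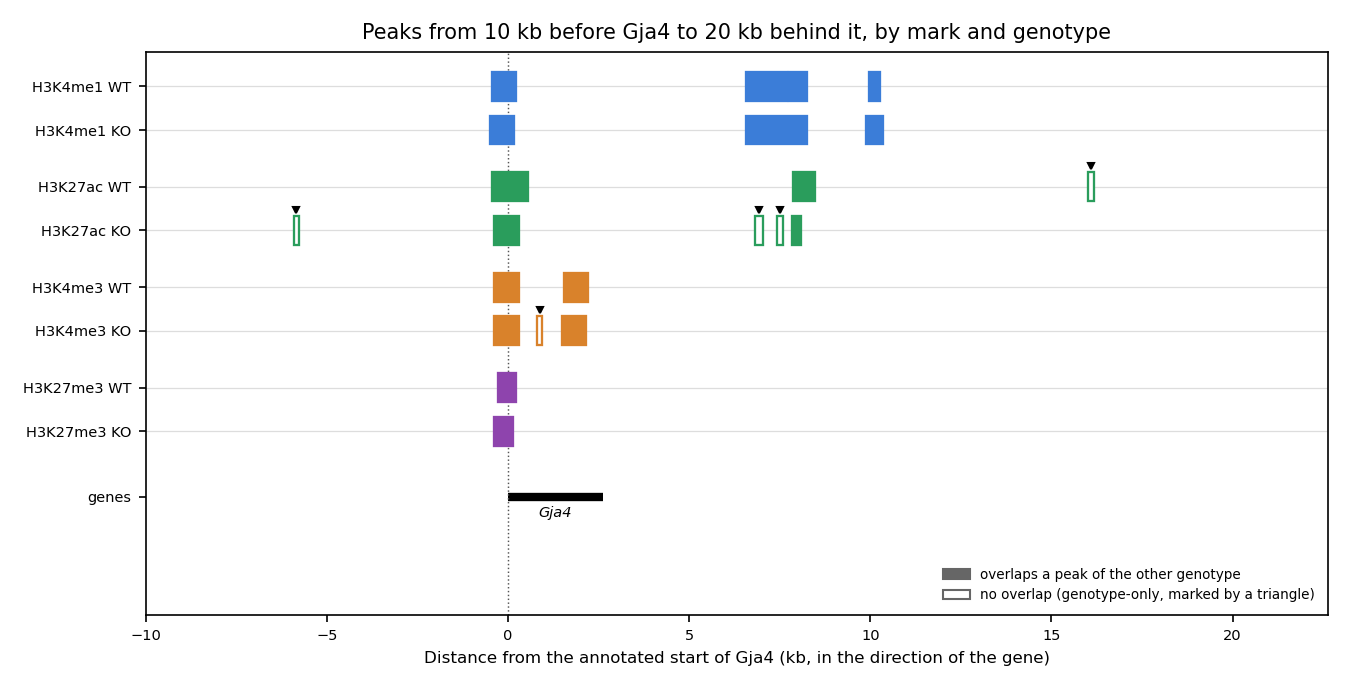
Peaks of 4 marks in WT and KO from 10 kb before Gja4 to 20 kb behind it, drawn to scale against the distance in kb from the annotated start in the direction of the gene; filled boxes are shared peaks and open boxes with a triangle are genotype-only. All 8 lists have a filled box at the start, and the 1680 bp KO H3K4me1 box lies 6581 to 8260 bp from it, opposite 2 WT boxes that touch at this scale.

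Gja1 (chromosome 10, 56377300 to 56390419, plus strand), the gene of the most widely expressed connexin, had 13 peaks in WT and 7 in KO. Its H3K4me3 and H3K27ac were shared at the front of the gene, and all of its H3K4me1 was WT-only. No peak of any list lay on the 250 bases before the annotated start (RefSeq, GRCm38.p6, plus strand, chr10:56377050-56377299), which are shown for comparison with those of Gja5 and Gja4, again with CG in capitals.
Gja1: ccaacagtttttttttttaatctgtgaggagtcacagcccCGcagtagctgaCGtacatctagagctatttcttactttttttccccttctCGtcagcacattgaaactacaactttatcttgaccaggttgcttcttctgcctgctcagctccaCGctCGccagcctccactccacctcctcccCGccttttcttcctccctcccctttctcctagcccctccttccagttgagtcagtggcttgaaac

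These bases held 6 CG dinucleotides, the median of the promoters in the table. The sequence TGAGTCA, the AP-1 motif, searched on both strands as were the other motifs, with no match overlapping another, occurred 1 time here, 0 times in the sequences of Gja5 and Gja4, and in 4.50% of promoters. The GC box, GGGCGG, occurred 1 time each in Gja4 and Gja5, 0 times in Gja1, and in 33.0% of promoters. The SOX core ACAAT occurred 1 time in Gja4 alone (27.1% of promoters). The sequence CGGAA, a longer form of the ETS core (25.4%), and the T-box motif AGGTGTGA (1.13%) occurred in none of the 3. The shorter ETS core GGAA was not counted.

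H3K4me3 of Gja1 began inside the gene. It ran from 589 to 1885 bp after the annotated start in WT (1297 bp) and from 544 to 1999 bp in KO (1456 bp), the widest H3K4me3 peaks over the 4 genes and at the 94.9th and 95.7th percentiles of their lists. H3K27ac on it was 1 peak of 1337 bp in WT and 2 peaks of 188 and 688 bp in KO, both within the bounds of the WT peak. An H3K27me3 peak of 320 bp (chr10:56378617-56378936) and an H3K4me1 peak of 207 bp lay within the same stretch in WT alone.

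The other WT H3K4me1 peak of Gja1 measured 269 bp and began 4542 bp into the gene. KO had no H3K4me1 peak over the gene or its flanks, and the nearest one was 52798 bp and 49918 bp away from these WT peaks. WT peaks without any KO peak of H3K4me1 were found over 5.47% of protein-coding genes. Both peaks were narrow, at the 20.7th and 31.6th percentiles of the WT list, and at those widths 53.8% and 65.0% of WT H3K4me1 peaks were shared.

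About 8 kb upstream of Gja1 was a site where narrow peaks of 3 marks coincided. WT had H3K27ac (193 bp), H3K4me3 (190 bp, chr10:56369193-56369382) and H3K27me3 (125 bp), and KO had H3K27me3 (170 bp) alone. No H3K4me1 peak lay there. Of WT-only H3K4me3 peaks, 2.33% overlapped H3K27ac in WT and H3K27me3 in both genotypes. The other H3K27ac peaks around Gja1 were a shared one behind the gene (294 bp in WT and 205 bp in KO), WT-only peaks of 175, 140, 343 and 133 bp and KO-only peaks of 131 and 116 bp. The narrowest WT-only ones were of widths at which few WT H3K27ac peaks were shared, 8.67% at 140 bp and 8.11% at 133 bp.

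**Figure D5:**
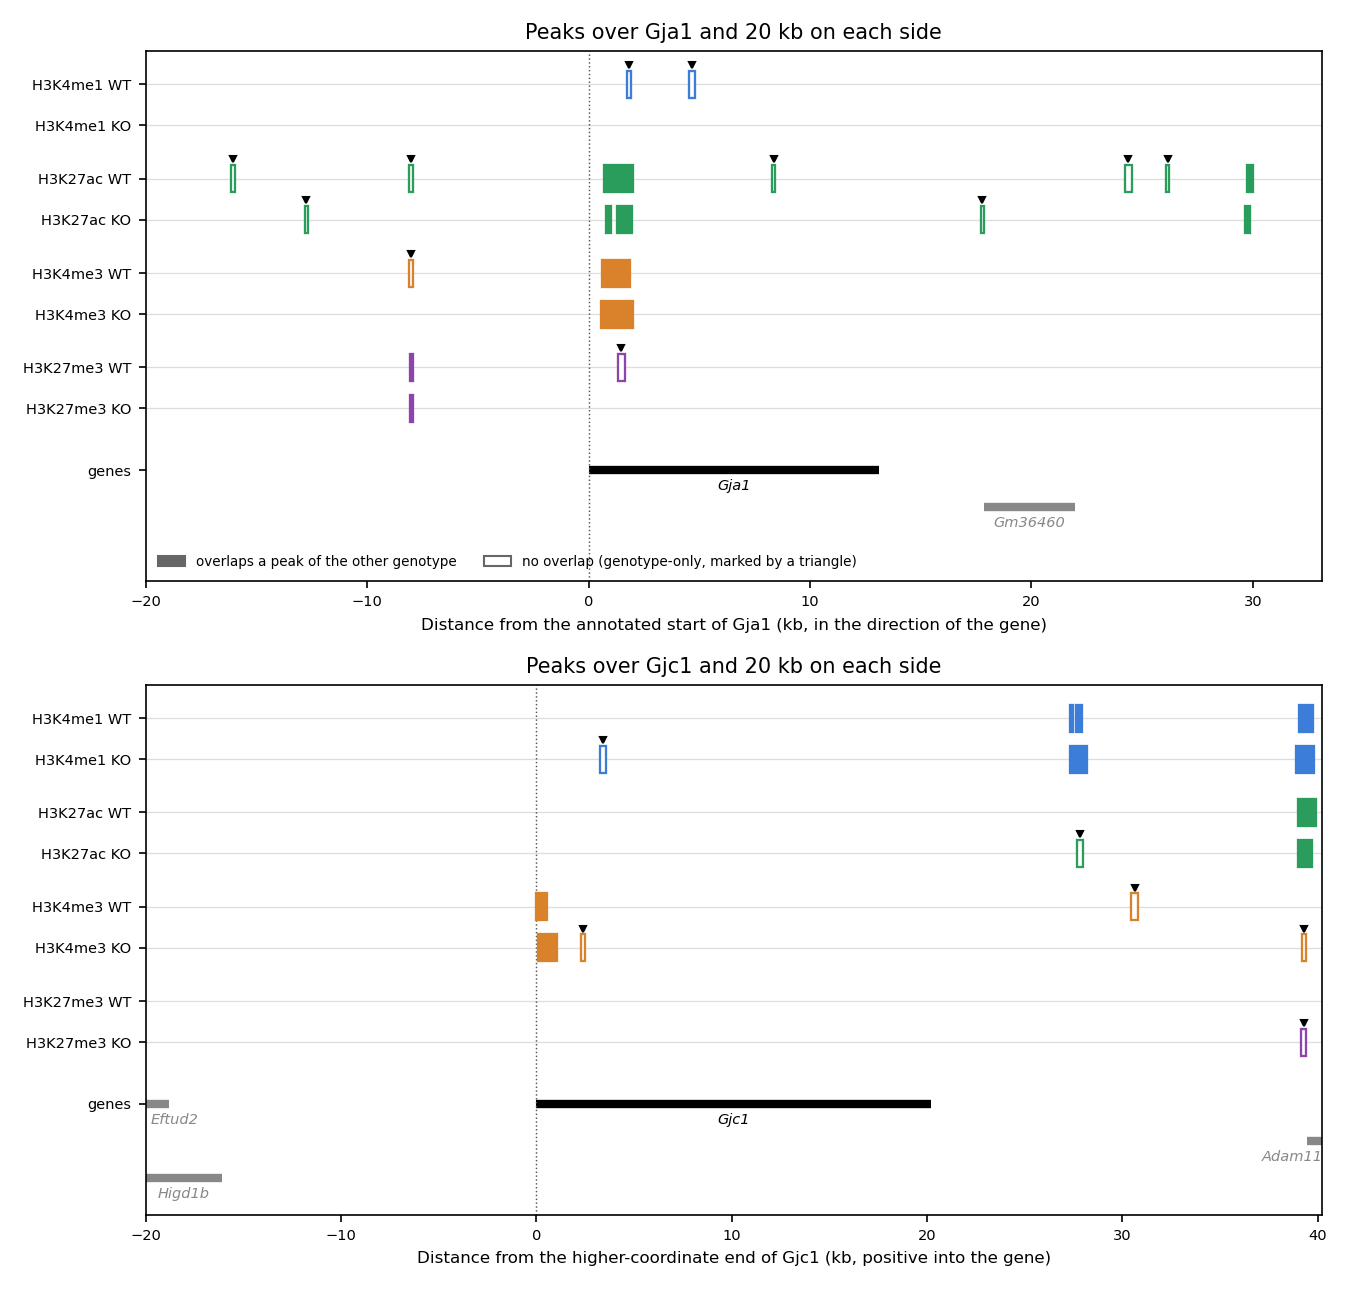
Peaks of 4 marks in WT and KO over Gja1 (top, distance in kb from the annotated start) and Gjc1 (bottom, distance in kb from the higher-coordinate end, positive into the gene), drawn to scale; filled boxes are shared peaks and open boxes with a triangle are genotype-only. H3K4me1 over Gja1 is open and in WT only (2 peaks), and Gjc1 has filled H3K4me3 boxes at one end with no H3K27ac box above them.

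Gjc1 (chromosome 11, 102799477 to 102819686) had 6 peaks in WT and 9 in KO, the fewest of the 4 genes with both lists added. H3K4me3 was the only mark at an end of the gene. At the higher-coordinate end it was shared, with 538 bp in WT (chr11:102819157-102819694) and 984 bp in KO (chr11:102818628-102819611). The KO peak reached further into the gene, to 1058 bp from that end against 529 bp in WT, and its KO over WT width of 1.83 was the largest of the 4 such H3K4me3 pairs over these genes. Neither peak overlapped H3K27ac, H3K4me1 or H3K27me3 of either genotype. Of the shared H3K4me3 peaks of WT, 7.22% overlapped no H3K27ac in either genotype, and H3K4me3 as the only mark at gene ends, in both genotypes, was found at 92 other genes (0.45% with Gjc1). KO-only peaks inside the gene were 1 of H3K4me3 (194 bp, 2296 to 2489 bp from that end) and 1 of H3K4me1 (280 bp, 3272 to 3551 bp).

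Beyond the lower-coordinate end of Gjc1, H3K4me1 was shared 7 to 8 kb away, as 345 and 120 bp in WT and a single 839 bp peak in KO (chr11:102791511-102792349). H3K27ac was listed on it in KO alone (308 bp), 11015 bp from the nearest WT peak. A WT-only H3K4me3 peak of 384 bp stood farther out (chr11:102788875-102789258) with no other mark, and 79.5% of WT H3K4me3 peaks of its width were shared. The outermost peaks overlapped the end of Adam11 (102780263), a neighbouring gene, or lay beside it: shared H3K4me1 (734 bp in WT and 893 bp in KO), shared H3K27ac (915 and 758 bp), and KO-only H3K4me3 (197 bp) and H3K27me3 (246 bp). Gja5 and Gjc1 each had both a WT-only and a KO-only H3K4me3 peak in the window, as did 8.62% of protein-coding genes.

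Where 1 WT peak met 1 KO peak, widths could be compared over the 4 genes. For H3K27ac the KO peak was narrower in 5 of 6 pairs, with a median KO over WT width of 0.699 (range 0.414 to 1.37), beside 0.953 over 27829 pairs of the whole lists. The exception was the start of Gja5. The median came from few pairs, and with a 5000 bp flank it was 1.03. For H3K4me1 the KO peak was wider in 4 of 6 pairs (median 1.15, range 0.858 to 1.64, beside 1.13 over 34525 pairs). For H3K4me3 it was wider in 2 of 4 pairs (median 1.06, range 0.987 to 1.83, beside 1.18). For H3K27me3 it was wider in 2 of 3 (median 1.07, range 0.346 to 1.36, beside 1.23). Over the whole lists the KO peak was wider in 43.6% of H3K27ac, 73.1% of H3K4me3 and 70.4% of H3K27me3 pairs. It was also wider there in most H3K4me1 pairs. The counts over the 4 genes rest on few pairs and were not tested against these shares.

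The other connexin genes were marked differently from these 4. Of 14 counted, 12 were found on chromosomes 1 to 19, and none of the 12 had H3K4me3 at an end in WT, whereas all 4 vascular genes did. Of all genes, 45.4% had it in both genotypes and 0.682% in WT only. H3K4me3 was KO-only at 1 of 12, Gjb2 (6.90% of all genes). H3K27me3 was found in both genotypes at 5 of 12 (34.4% of all genes), beside 1 of 4 vascular genes, Gja4. It was KO-only at 2 of 12, Gja3 and Gjd3 (8.28% of all genes). H3K27ac was at an end of none of the 12 in either genotype (46.4% of all genes had it in neither). It was at an end of 3 of the 4 vascular genes in both genotypes (45.7% of all genes). The 4 genes were chosen as connexins of vessels, so this contrast is a description and no independent evidence.

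Genes that act with or upstream of vascular connexins were counted as a list of 18: junction partners such as Tjp1 and Cdh5, the Notch genes Notch1 and Dll4 with their targets Hey1 and Hey2, and transcription factors of vessels and heart. H3K4me3 was at an end in both genotypes at 15 of them (45.4% of all protein-coding genes). It was KO-only at Tbx20, a cardiac T-box factor (6.90% of all genes), and in neither at Tjp1 and Nkx2-5 (47.0%). H3K27ac was in both genotypes at 14 (45.7% of all genes) and WT-only at Nr2f2, a factor of venous endothelium (5.88%). H3K27me3 was in both genotypes at 10 (34.4%), KO-only at Cdh5, Notch1 and Nr2f2 (8.28%) and WT-only at Nos3 and Cav1 (3.43%). H3K4me1 was in both genotypes at 13 (37.1%) and WT-only at Panx1 (9.52%).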

How the data were processed

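ACT-seq peak lists of 4 histone marks were compared over 4 connexin genes. The values are the positions and widths of peaks in bp (unit class other), as the authors deposited them, 1 list for each mark and genotype, and they were not rescaled. The tools named are MACS2 2.1.2.1, Bowtie2 2.2.6, deepTools 3.1.1, SAMtools, cutadapt 1.14 and Trim Galore 0.4.4, and the builds mm10 and R64 (yeast, used as spike-in), per the submitters' processing notes. What each did, the threshold for a peak and whether samples were pooled is not given in the sources used here. Depth is unknown.

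Genes came from RefSeq GRCm38.p6 (mm10). A peak counted for a gene if it overlapped the gene body plus 20000 bp on each side, and a mark was at a gene end within 1000 bp of either end. Strand and promoter sequence came from a RefSeq promoter table, which matched 3 of the 4 genes. Distances for Gjc1 are from its higher-coordinate end. Shares at a like width are over peaks of the same list within 20% of the width.

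The members, gene lists and motifs were chosen with earlier results of these data known. The 4 genes are always named; other connexins are named where H3K4me3 or H3K27me3 at gene ends differs, and partners where H3K4me3 differs. Partners named for the other marks, and the marker genes in brackets, were chosen after their values were seen. The list of other connexins was shortened after its values were seen: 2 of its genes, and the peaks at 1 of them, are not reported here, though peaks within 20000 bp of a member stay in its counts. No test between genotypes was run. The overlap code was checked against an exhaustive search and on simulated lists. Python 3.11.15, numpy 2.4.6, pandas 2.3.3 and matplotlib 3.10.9 were used. Alternatives changed the flank, the overlap, narrow peaks, list length and the gene-end distance.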

Additional observations from a re-analysis of the deposited data

How the results depend on the processing

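No paired analysis was possible because the lists hold no value per sample, and leaving out replicates was not run for the same reason. The cause of each change below was not tested unless the setting itself selects fewer or more peaks. The count of genes with H3K4me3 at an end in 1 genotype was 1 under all alternatives run. A 5000 bp flank gave 3 WT-only H3K27ac peaks in place of 10, 1 WT-only and 2 KO-only H3K4me3 peaks in place of 3 and 5, 1 WT-only and 0 KO-only H3K27me3 peaks in place of 2 each, and turned the median H3K27ac KO over WT width from 0.699 to 1.03. A 50000 bp flank gave 16 WT-only H3K27ac, 8 WT-only H3K4me1, 5 WT-only H3K4me3 and 4 KO-only H3K27me3 peaks. Leaving out peaks under 200 bp gave 2 WT-only and 6 KO-only H3K27ac peaks and 2 KO-only H3K4me3 peaks. Equal numbers of the widest peaks gave 2 WT-only H3K27ac, 2 KO-only H3K4me3 and 1 KO-only H3K27me3 peaks. Under both of these settings the median H3K27me3 KO over WT width turned from 1.07 to 0.71. Counting peaks within 500 bp as shared left 2 WT-only H3K4me1 peaks in place of 4. The KO-only H3K27ac count of Gja5, an addition made after its peaks were seen, ranged from 4 to 7 where the main value was 6. Of 78 comparisons of a main value with an alternative, 59 stayed within 1.5 times, with median widths on the same side of 1. Without depth or replicates, a missing peak cannot be told apart from one under the threshold.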
